A study of Mus musculus with 10 samples.

Results

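The 40 genes described here encode core components of the spliceosome, the RNA-protein machine that removes introns from pre-mRNA. They were chosen by name: the Sm and LSm proteins, proteins of the U1, U2, U4, U5 and U6 small nuclear ribonucleoproteins (snRNPs), the SF3A and SF3B complexes, U2AF and PRPF19. All 40 were found among the 54232 genes of the count table, and all 40 were among the 20043 genes with enough counts to be tested.

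Testes were taken from mice of the B6D2F1 strain at P4. The *Dis3* cKO mice carried 1 deleted and 1 floxed *Dis3* allele together with *Ddx4-Cre*, which is active in male germ cells from the fetal stage on, so that exons 4 to 6 of the floxed allele are removed in germ cells, and somatic cells keep the floxed allele. Control siblings carry the genotype label Dis3 WT. Each of the 5 libraries per group was made from both testes of 1 mouse, from total RNA with random and poly(T) priming, strand selection and depletion of ribosomal RNA. DIS3 is a ribonuclease of the RNA exosome, the complex that degrades many nuclear transcripts.

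Splicing begins when the U1 snRNP pairs with the 5′ splice site and U2AF recognises the 3′ end of the intron. The U2 snRNP then binds the branch point with SF3A and SF3B, and the tri-snRNP of U4, U6 and U5 joins. Rearrangement releases U1 and U4 and forms the catalytic centre around U6, U2 and PRPF8. A ring of 7 Sm proteins sits on U1, U2, U4 and U5 RNA, and a ring of 7 LSm proteins sits on the 3′ end of U6 RNA.

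Libraries held 28538849 to 41104912 counts in genes. *Dis3* ranged from 4116 to 5161 normalized counts in control and from 1362 to 1709 in *Dis3* cKO (log2 fold change -1.62, SE 0.09, adjusted p = 3.78e-07 in edgeR; exact permutation test, two-sided, p = 0.00794, the smallest that 5 against 5 allow). Replicates 1 to 3 and replicates 4 and 5 stood apart in both groups, a division the labels do not name. By chi-square over genes, per degree of freedom, control pairs gave 4.36 to 15.9 within a set and 32.7 to 49.6 across sets. *Dis3* cKO pairs gave 4.68 to 26.1 within a set and 28.9 to 43.8 across sets. *Dis3* cKO replicate 1 gave 21.4 and 26.1 against replicates 2 and 3, and 29.1 and 32.2 against replicates 4 and 5. Replicates 1 to 3 of *Dis3* cKO were therefore not a close set. Each gene or window past the threshold is also given within each set. The counts came from whole testes, in which fewer cells of a type and less RNA per cell cannot be told apart. Over all libraries, 6 of 14 germ cell markers, none of them at 0, were lower and none higher in *Dis3* cKO, with a median log2 fold change of -0.44, and their summed level was 23876 to 29669 normalized counts in control against 16473 to 21201. Replicates 1 to 3 alone gave a median of -0.23 and replicates 4 and 5 alone one of -0.81. Among 14 cycling cell markers 1 was higher and 2 lower (median -0.17; summed level 108004 to 127190 in control and 118849 to 124664 in *Dis3* cKO). No marker of Sertoli cells, stromal cells, macrophages or erythroid cells passed, 1 of 6 Leydig cell markers was lower, and 1 of 6 myoid and 1 of 6 endothelial markers were higher. The lists are given within each set further on, and their part in the results below was not tested.

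Most core spliceosome genes did not pass the test, and the share that was higher lay near that of all genes tested. In edgeR's quasi-likelihood test (Benjamini-Hochberg adjusted p under 0.05 over all genes tested) 5 of 40 genes were lower in *Dis3* cKO, or 12.5%, where 3.48% of all genes tested were lower. These were *Lsm4*, *Snrpe*, *Snrnp40*, *Txnl4a* and *Prpf3*. The 2 higher genes, *Prpf8* and *Snrnp200*, make up 5% of the 40, where 4.42% of all genes tested were higher. Both calls were lost when each library's trend over gene length was removed, as given further on. The 40 genes had a median log2 fold change of -0.12, and all genes tested one of -0.01. Below 0 were 32 of the 40 fitted values, or 80.0%, against 52.0% of all genes tested. In 5 genes all *Dis3* cKO libraries lay below all control libraries, an arrangement found in 4.31% of all genes tested, and in none did they all lie above (4.59% of all genes).

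Every library gave 0.458% to 0.531% of its gene counts to these 40 genes. Control shares ran from 0.525% to 0.531% and *Dis3* cKO shares from 0.458% to 0.516%, without overlap. After scaling by edgeR's TMM factors, which were 1.01 to 1.04 in control and 0.969 to 0.987 in *Dis3* cKO, the summed levels did overlap, at 176682 to 182985 and 162525 to 185086 normalized counts. The lowest shares in *Dis3* cKO were those of replicates 4 and 5.

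**Figure D1:**
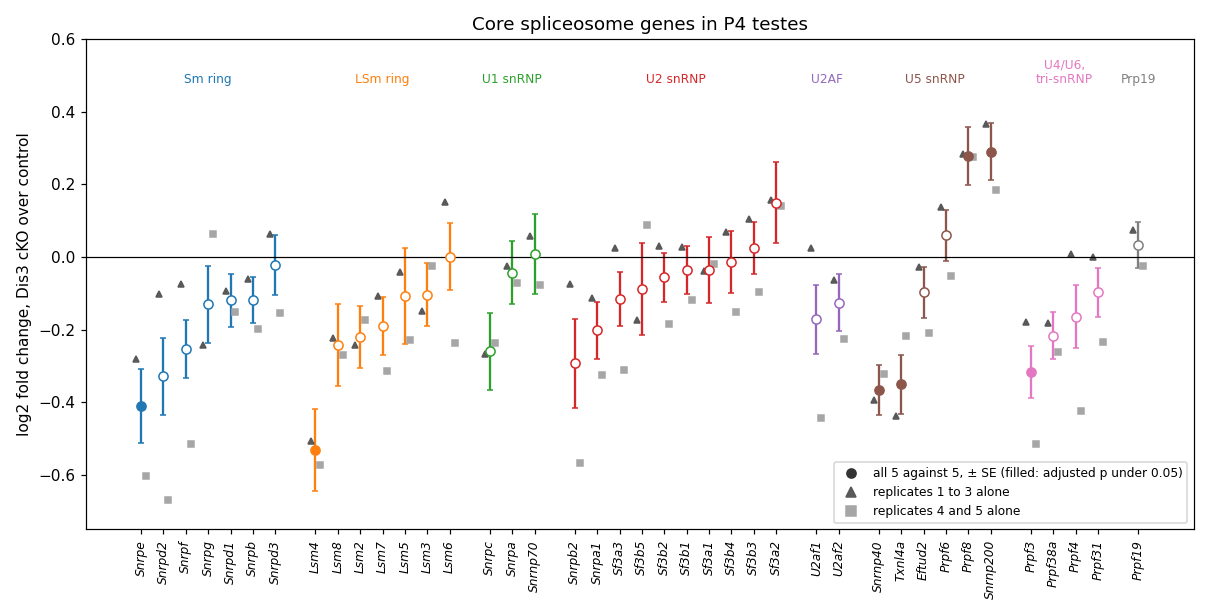
Log2 fold change of each gene in *Dis3* cKO over control (vertical axis), ordered within its particle. Circles with bars show the value over all 5 against 5 libraries with its standard error, filled where the adjusted p was under 0.05, triangles the value within replicates 1 to 3 and squares that within replicates 4 and 5. The filled circles are 5 below 0 (-0.53 to -0.32) and 2 above (0.28 and 0.29), both in the U5 snRNP.

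The Sm proteins B, D1, D2, D3, E, F and G form the ring that is loaded onto snRNAs in the cytoplasm. All 7 fitted values of their genes lay below 0 (-0.41 to -0.02, median -0.13), and only *Snrpe* passed the threshold. *Snrpe* (ENSMUSG00000090553.8, GRCm38 chr1:133603871-133610291, minus strand) had 656.1, 725.8, 677.7, 746.6 and 735.1 normalized counts in control replicates 1 to 5 and 664.1, 534.6, 497.5, 520.6 and 449.6 in *Dis3* cKO. Only *Dis3* cKO replicate 1 reached into the control range. The mean was 708.3 ± 39.2 (SD, n = 5) in control and 533.3 ± 79.9 in *Dis3* cKO, with a log2 fold change of -0.41 (SE 0.10, adjusted p = 0.0258 in edgeR). The call was lost without control replicate 2, 4 or 5 or *Dis3* cKO replicate 2, 3 or 5, each left out alone (log2 fold change -0.41 to -0.36, adjusted p in edgeR 0.0556 to 0.0629). It was also lost within replicates 1 to 3 (-0.28, adjusted p = 0.164 in edgeR), and replicates 4 and 5 alone gave -0.60.

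*Snrpf*, the gene of the Sm F protein, had 10177, 10071, 9825, 11551 and 11912 normalized counts in control and 9325, 9080, 10171, 8243 and 8110 in *Dis3* cKO. The groups overlapped through *Dis3* cKO replicate 3, and the 2 highest control libraries and the 2 lowest *Dis3* cKO libraries were replicates 4 and 5. Over all libraries the log2 fold change was -0.25 (SE 0.08, adjusted p = 0.0694 in edgeR), and without *Dis3* cKO replicate 3 it was -0.30 (adjusted p = 0.0445). With the set of replicates as a term in the edgeR fit *Snrpf* passed (-0.25, adjusted p = 0.0314). For *Snrpd2*, the gene of the Sm D2 protein, the log2 fold change of -0.33 missed the threshold (adjusted p = 0.0756 in edgeR) and passed it with the set as a term (adjusted p = 0.0389). *Snrpd1*, *Snrpb*, *Snrpg* and *Snrpd3* lay between -0.13 and -0.02.

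The LSm proteins 2 to 8 form the nuclear ring that protects the 3′ end of U6 RNA, and most of them also belong to a cytoplasmic ring in mRNA decay. *Lsm4* (ENSMUSG00000031848.15, GRCm38 chr8:70673248-70678752, plus strand) showed the lowest fold change of the 40 genes. Control replicates 1 to 5 had 3725, 3457, 3341, 2926 and 2682 normalized counts and *Dis3* cKO replicates 2295, 2566, 2548, 1855 and 1895. All *Dis3* cKO libraries lay below all control libraries, and replicates 4 and 5 were the lowest of both groups. The mean fell from 3226 ± 418.6 to 2232 ± 343.1 (SD, n = 5; log2 fold change -0.53, SE 0.11, adjusted p = 0.0116 in edgeR). Replicates 1 to 3 alone gave -0.51 and replicates 4 and 5 alone -0.57 (adjusted p of the difference 0.805 in edgeR's interaction test).

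*Lsm2* had 2792, 2872, 2858, 2250 and 2466 normalized counts in control and 2259, 2438, 2508, 2032 and 2124 in *Dis3* cKO. Within each set of replicates the *Dis3* cKO values were the lower ones, but across sets the groups overlapped (log2 fold change -0.22, SE 0.09, adjusted p = 0.128 in edgeR). With the set of replicates as a term *Lsm2* passed the threshold in edgeR (adjusted p = 0.0110). The fitted values of *Lsm3*, *Lsm5*, *Lsm6*, *Lsm7* and *Lsm8* were between -0.24 and 0.00, and none passed.

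None of the 3 genes of the U1 snRNP passed the threshold over all libraries. *Snrpc*, whose product U1-C steadies the pairing with the 5′ splice site, had 1145, 1337, 1104, 937.4 and 1100 normalized counts in control and 851.7, 1118, 1004, 839.7 and 881.0 in *Dis3* cKO (log2 fold change -0.26, SE 0.11, adjusted p = 0.148 in edgeR, and 0.0468 with the set of replicates as a term). *Snrpa*, the gene of U1-A, had 2774, 2791, 2924, 2445 and 2580 normalized counts in control and 2380, 2955, 3009, 2305 and 2455 in *Dis3* cKO. The groups overlapped in both genes (*Snrpa* log2 fold change -0.04, SE 0.09). *Snrnp70* was at 0.01.

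The 10 genes of the U2 snRNP were likewise all short of the threshold, with a median log2 fold change of -0.05 and a range from -0.29 to 0.15. *Snrpb2*, the gene of U2-B″, had 3089, 3234, 3057, 4387 and 4313 normalized counts in control and 3487, 2935, 2494, 3187 and 2650 in *Dis3* cKO (log2 fold change -0.29, SE 0.12, adjusted p = 0.158 in edgeR). Control replicates 4 and 5 lay above the other 8 libraries. *Snrpa1*, the gene of U2-A′, had 2248, 2493, 2088, 2620 and 2466 normalized counts in control and 2382, 2010, 1930, 2056 and 1984 in *Dis3* cKO (log2 fold change -0.20, SE 0.08, adjusted p = 0.136). The 8 SF3A and SF3B genes, which include the branch-point binding subunit gene *Sf3b1* at -0.04, lay between -0.12 and 0.15.

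U2AF has a large subunit that binds the polypyrimidine tract, encoded by *U2af2*, and a small one that reads the AG at the intron end, encoded by *U2af1*. *U2af1* had 1095, 1234, 1190, 1461 and 1457 normalized counts in control and 1290, 1192, 1099, 1076 and 1059 in *Dis3* cKO (log2 fold change -0.17, SE 0.09, adjusted p = 0.291 in edgeR). *U2af2* had 3152, 3233, 3215, 3139 and 2861 normalized counts in control and 3247, 2967, 2980, 2421 and 2685 in *Dis3* cKO (log2 fold change -0.13, SE 0.08, adjusted p = 0.359 in edgeR). Neither gene passed, and the groups overlapped in both.

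The U5 snRNP held 4 of the 7 genes past the threshold. *Snrnp40*, which encodes a WD-repeat protein of U5, had the lowest p of the 40 genes. It lies on GRCm38 chr4:130360132-130390026, plus strand (ENSMUSG00000074088.6). Control replicates had 3270, 3285, 3018, 3310 and 3604 normalized counts and *Dis3* cKO replicates 2333, 2476, 2481, 2739 and 2764. The groups did not overlap (3297 ± 207.9 and 2559 ± 186.2, SD, n = 5; log2 fold change -0.37, SE 0.07, adjusted p = 0.00701 in edgeR). Replicates 1 to 3 alone gave -0.39 and replicates 4 and 5 alone -0.32.

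*Txnl4a* encodes the small U5 protein that is released as the spliceosome is activated. It lies on GRCm38 chr18:80206795-80223533, plus strand (ENSMUSG00000057130.11). Its normalized counts were 1145, 1218, 998.5, 1063 and 1075 in control and 888.7, 767.2, 828.5, 960.4 and 867.4 in *Dis3* cKO. Here too every *Dis3* cKO library lay below every control library (log2 fold change -0.35, SE 0.08, adjusted p = 0.0196 in edgeR). The call was lost without control replicate 1 or 2 or without *Dis3* cKO replicate 2 (log2 fold change -0.34 to -0.31, adjusted p in edgeR 0.0533 to 0.0589). It was also lost within replicates 4 and 5 (-0.22, adjusted p = 0.128 in edgeR), while replicates 1 to 3 alone gave -0.44.

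*Prpf8* and *Snrnp200*, the genes of the large scaffold protein of the catalytic centre and of the helicase that unwinds U4 from U6, moved the other way. *Snrnp200* (ENSMUSG00000003660.10, GRCm38 chr2:127208386-127240451, plus strand) had 5578, 5913, 7334, 6773 and 6436 normalized counts in control and 7539, 8404, 8312, 7323 and 7600 in *Dis3* cKO. The 2 groups met at control replicate 3 and *Dis3* cKO replicate 4, and the log2 fold change was 0.29 (SE 0.08, adjusted p = 0.0381 in edgeR). *Prpf8* (ENSMUSG00000020850.14, GRCm38 chr11:75486816-75509449, plus strand) had 12182, 12395, 14872, 12830 and 12951 normalized counts in control and 13581, 16758, 17650, 15247 and 15785 in *Dis3* cKO. Only control replicate 3 and *Dis3* cKO replicate 1 lay in the range of the other group (log2 fold change 0.28, SE 0.08, adjusted p = 0.0496 in edgeR).

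Both increases lay close to the threshold. The call of *Prpf8* was lost in 8 of the 10 fits that left out 1 library, all but those without control replicate 3 or *Dis3* cKO replicate 1 (log2 fold change 0.23 to 0.29, adjusted p in edgeR 0.0660 to 0.119). It was lost within replicates 1 to 3 as well (0.28, adjusted p = 0.128 in edgeR) and held within replicates 4 and 5 (0.28). That of *Snrnp200* was lost in 8 of 10, all but those without control replicate 3 or *Dis3* cKO replicate 4 (0.24 to 0.31, adjusted p in edgeR 0.0522 to 0.0981). In the separate sets *Snrnp200* passed both times (0.36 and 0.18, adjusted p = 0.0403 and 0.0334 in edgeR). The other U5 genes were *Eftud2*, which encodes the GTPase of the particle, at -0.10 and *Prpf6*, which encodes its bridge to U4/U6, at 0.06, and neither passed.

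**Figure D2:**
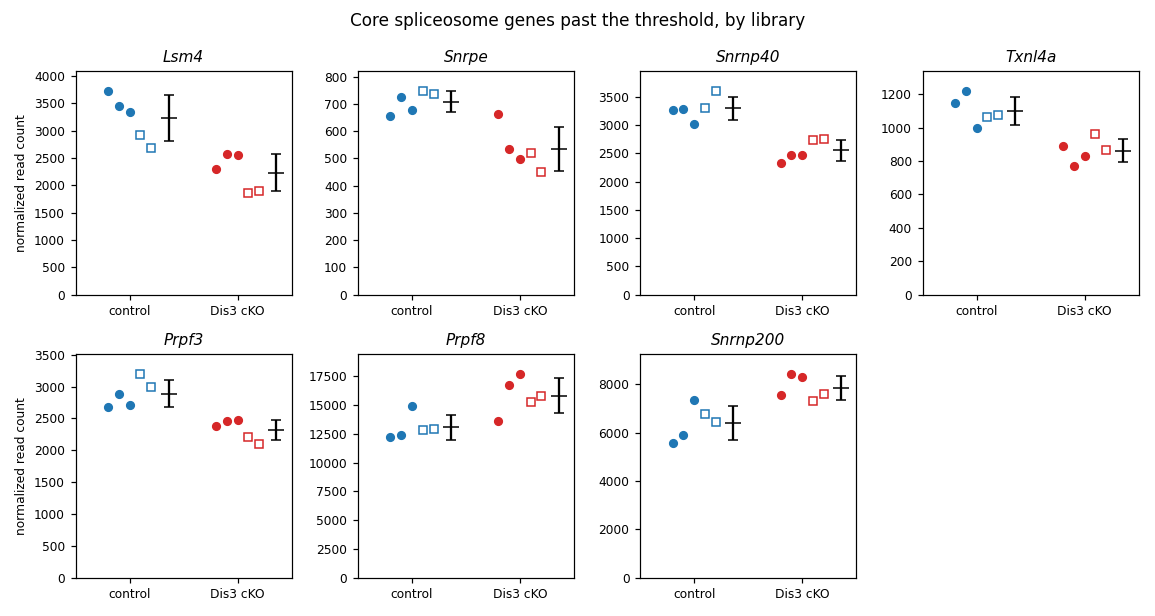
Normalized read count (vertical axis, from 0) of the 7 genes past the threshold in each library of control (blue) and *Dis3* cKO (red), with filled circles for replicates 1 to 3, open squares for replicates 4 and 5 and bars for the mean and SD (n = 5). In *Lsm4*, *Snrnp40*, *Txnl4a* and *Prpf3* the groups do not overlap, and in *Snrpe*, *Prpf8* and *Snrnp200* they do.

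Proteins of the U4/U6 snRNP hold U6 RNA in its inactive pairing with U4. All 4 genes of this group and the tri-snRNP had fitted values below 0 (-0.32 to -0.10, median -0.19), and *Prpf3* passed the threshold. *Prpf3* (ENSMUSG00000015748.13, GRCm38 chr3:95830124-95855885, minus strand) had 2675, 2885, 2708, 3192 and 2986 normalized counts in control and 2375, 2457, 2469, 2203 and 2101 in *Dis3* cKO. The groups did not overlap (2889 ± 212.0 and 2321 ± 162.6, SD, n = 5; log2 fold change -0.32, SE 0.07, adjusted p = 0.0165 in edgeR). Replicates 1 to 3 alone gave -0.18, which missed the threshold (adjusted p = 0.128 in edgeR), and replicates 4 and 5 alone -0.51. *Prpf38a*, whose product enters with the tri-snRNP, had 1688, 1642, 1550, 1751 and 1726 normalized counts in control and 1515, 1443, 1348, 1518 and 1368 in *Dis3* cKO. Its groups did not overlap either, but it missed the threshold (log2 fold change -0.22, SE 0.07, adjusted p = 0.0576 in edgeR), and passed it without control replicate 3 (-0.23, adjusted p = 0.0473 in edgeR) or with the set of replicates as a term (adjusted p = 0.0208).

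*Prpf19* encodes the ubiquitin ligase that names the Prp19 complex, which joins at activation. It had 7685, 7909, 7439, 7891 and 8110 normalized counts in control and 7408, 8242, 8610, 7376 and 8277 in *Dis3* cKO. The *Dis3* cKO libraries surrounded the control range, and the log2 fold change was 0.03 (SE 0.06, adjusted p = 0.809 in edgeR).

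More of the 40 genes were lower within replicates 4 and 5. Within replicates 1 to 3 alone, 3 of 40 genes were lower (7.5%; 2.74% of all genes tested) and 1 was higher (2.5%; 4.8% of all genes). These were *Lsm4*, *Snrnp40* and *Txnl4a*, and *Snrnp200*. Within replicates 4 and 5 alone, with 2 libraries per group, 18 were lower (45%; 11.7% of all genes) and 2, *Prpf8* and *Snrnp200*, were higher (5%; 11.7% of all genes). Their median log2 fold change was -0.05 in the first set and -0.21 in the second, beside -0.02 and -0.01 over all genes tested.

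Cell type markers were counted in each set too. Within replicates 1 to 3, 5 of 14 germ cell markers and 3 of 6 myoid markers were lower, 1 of 14 cycling cell markers was higher, and none of the Sertoli, Leydig, stromal, endothelial, macrophage or erythroid markers passed the threshold in edgeR. Within replicates 4 and 5, 12 of 14 germ cell markers and 13 of 14 cycling cell markers were lower, with median log2 fold changes of -0.81 and -0.30 (-0.23 and -0.09 in replicates 1 to 3). In that same set 5 of 6 myoid, 6 of 6 stromal, 4 of 6 endothelial and 3 of 4 erythroid markers were higher, with medians of 0.80, 0.71, 0.37 and 0.69, against -0.34, -0.17, -0.12 and -0.03 in replicates 1 to 3. Of the others, 2 of 8 Sertoli markers, 2 of 6 Leydig markers, 1 of 6 macrophage markers and 1 cycling cell marker were higher and 1 Leydig marker lower. The part of these lists in the 18 lower genes was not tested.

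The difference between the sets itself passed an interaction test in edgeR for 4 of the 40 genes, or 10%, beside 4.59% of all genes tested. *Snrpf* had log2 fold changes of -0.07 within replicates 1 to 3 and -0.51 within replicates 4 and 5 (adjusted p of the difference 0.0102). *Snrpd2* had -0.10 and -0.67 (0.0300), *U2af1* 0.02 and -0.44 (0.0366) and *Prpf4*, which encodes a WD-repeat partner of PRPF3, 0.01 and -0.42 (0.0431). In each of the 4 genes control replicates 4 and 5 were the highest control libraries and *Dis3* cKO replicates 4 and 5 the lowest libraries of all.

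The 2 higher genes were among the longer ones. *Prpf8* and *Snrnp200* have 7461 and 7819 bases of annotated exon, whereas the 5 lower genes range from 1038 for *Lsm4* to 5661 for *Prpf3*. Across the 40 genes the log2 fold change rose with log2 exon length (Pearson's r = 0.44, Spearman's rho = 0.43, across genes, which share the libraries and are not independent replicates), beside r = 0.08 and rho = 0.18 across all 20043 genes. The 9 genes under 2000 bases had a median of -0.17, where all tested genes of that length had -0.08. The 13 genes of 5000 bases and over had -0.04, where all tested genes had 0.05. With each library's trend over length removed, 3 genes were lower (7.5%; 2.7% of all genes tested), *Lsm4*, *Snrnp40* and *Prpf3*, and 0 were higher (3.48% of all genes). *Txnl4a* (adjusted p = 0.0512), *Snrpe* (0.0560), *Snrnp200* (0.0698) and *Prpf8* (0.0806) then missed the threshold in edgeR.

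**Figure D3:**
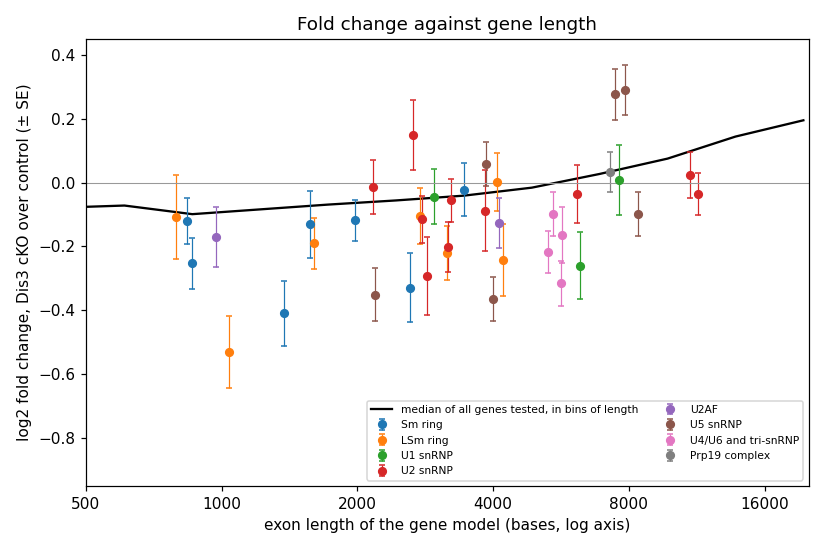
Log2 fold change in *Dis3* cKO over control with its standard error (vertical axis) against exon length in bases (horizontal axis, log scale) for the 40 genes, coloured by particle, with the median of all tested genes by length as a black line. The line climbs from below 0 for short genes to above 0 for long ones, and *Prpf8* and *Snrnp200*, at 7461 and 7819 bases, lie above it.

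Genes whose proteins sit in equal numbers in one ring differed widely in RNA level. In RPKM, counts per kilobase of exon scaled to library size with the TMM factors, *Snrpd1* was the highest of the 40 genes in control (413 ± 31.1, SD, n = 5) and *Snrpc* the lowest (5.21 ± 0.66). Within the Sm ring *Snrpd1* stood 45.6 times above *Snrpd2*, and within the LSm ring *Lsm4* stood 8.23 times above *Lsm8*. The U4/U6 and tri-snRNP genes spanned only 1.62 times, from 14.7 for *Prpf3* to 9.08 for *Prpf38a*. These ranks and ratios depend on the annotated length, which takes in all exons of a gene (837 bases for *Snrpd1*, 2618 for *Snrpd2* and 6217 for *Snrpc*). By mean normalized count in control *Snrnp70* was highest (13198) and *Lsm5* lowest (436.8), with *Snrpd1* at 12008 and *Snrpc* at 1125. *Snrpd1* had 12653, 11968, 10476, 12672 and 12274 normalized counts in control and 11901, 10070, 10948, 11933 and 10406 in *Dis3* cKO, which overlap (log2 fold change -0.12, SE 0.07, adjusted p = 0.352 in edgeR).

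Levels of several of these genes carry a further uncertainty. For 12 of the 40, GENCODE lists a pseudogene with an alignment of at least 100 bases at 98% identity or more. Reads shared between gene and copy can be assigned to neither or to the wrong one. The 12 genes are *Snrpd1*, *Snrpd2*, *Snrpe*, *Snrpf*, *Snrpg*, *Lsm5*, *Lsm6*, *Lsm7*, *Snrpc*, *Sf3b4*, *U2af1* and *U2af2*. The counts assigned to the copies came to between 0.63% of the gene's own for *Sf3b4* and 42.3% for *Snrpg*, and to 16.8% for *Snrpe*. Some copies had too few counts to be tested or were absent from the count table, and none of those tested passed the threshold in edgeR.

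**Figure D4:**
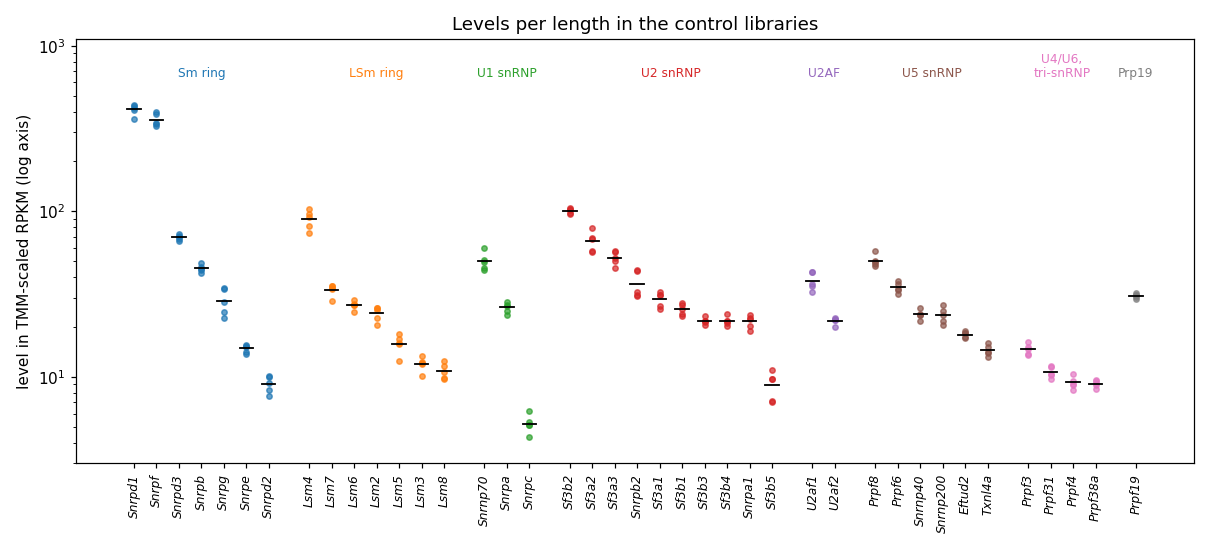
Level in the 5 control libraries (points) and their mean (lines) for each gene, in TMM-scaled RPKM (vertical axis, log scale), ordered within its particle. *Snrpd1* is highest at 413 and *Snrpc* lowest at 5.21.

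RNA from the opposite strand upstream of 6 of these genes was higher in *Dis3* cKO. Promoter upstream transcripts (PROMPTs) run antisense from active promoters and are substrates of the nuclear exosome, and they were counted in windows of 3000 bases upstream of gene starts that hold no other annotation. Such a window was in the table for 14 of the 40 genes, and all 14 passed the minimum mean of 3 counts. In *Dis3* cKO 6 of the 14 were higher (42.9%; 13.6% of all 12345 windows tested) and 0 lower (0.0486%), also at an unadjusted p under 0.05 in edgeR and in DESeq2. Their median log2 fold change was 1.57, beside 0.64 over all windows tested, so that the upstream signal as a whole was higher relative to the genes. With libraries scaled on the upstream counts themselves, an alternative chosen after seeing the data, the median of all windows was -0.08, and 3 of the 14 (21.4%; 5.18% of all windows) remained higher, those of *Lsm4*, *Snrpb* and *Sf3b1*. All 14 windows lie upstream of coding genes, whereas the windows tested in all include those of noncoding genes and pseudogenes. In the paper, antisense increases took a larger share of windows at coding genes than at those other types. No share over coding genes alone is given here.

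The promoters of 3 of the genes with a higher window are shown, and the window starts within each. That of *Snrnp70*, in which its window starts too, is not shown, and it held matches to GCGCATGC (NRF1) and GGGCGG (Sp1). The 3 promoters run from 250 bases before to 50 after the RefSeq start, 5′ to 3′ on the gene's strand, in build GRCm38.p6. Capitals mark matches on either strand to CCGGAAG, the core of the ETS family site, in *Sf3a3* (chr4:124714611-124714910, plus strand), and to GGGCGG, the GC box of Sp1, in *Sf3b1* (chr1:55027429-55027728, minus strand) and *U2af1* (chr17:31658705-31659004, minus strand).
Sf3a3: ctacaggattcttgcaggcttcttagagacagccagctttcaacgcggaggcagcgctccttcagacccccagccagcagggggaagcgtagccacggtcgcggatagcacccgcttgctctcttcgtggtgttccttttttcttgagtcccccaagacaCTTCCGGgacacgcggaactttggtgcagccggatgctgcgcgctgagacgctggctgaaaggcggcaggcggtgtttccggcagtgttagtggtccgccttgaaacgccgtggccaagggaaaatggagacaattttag
Sf3b1: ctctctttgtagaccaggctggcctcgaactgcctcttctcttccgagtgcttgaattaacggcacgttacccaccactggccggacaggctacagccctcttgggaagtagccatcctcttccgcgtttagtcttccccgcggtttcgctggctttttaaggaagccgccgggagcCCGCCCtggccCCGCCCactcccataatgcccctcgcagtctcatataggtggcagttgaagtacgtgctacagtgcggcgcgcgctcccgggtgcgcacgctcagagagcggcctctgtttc
U2af1: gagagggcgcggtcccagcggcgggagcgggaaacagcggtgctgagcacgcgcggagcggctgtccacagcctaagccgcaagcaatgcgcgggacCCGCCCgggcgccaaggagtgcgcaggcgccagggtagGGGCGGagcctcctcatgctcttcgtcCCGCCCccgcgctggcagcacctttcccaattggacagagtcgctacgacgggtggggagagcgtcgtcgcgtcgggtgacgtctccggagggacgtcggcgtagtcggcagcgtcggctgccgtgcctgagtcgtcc

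All 3 are rich in CG, with 22, 24 and 41 CG pairs in 300 bases. Promoters were found for 31 of the 40 genes, and their median of 23 CG pairs compares with 19 for tested genes and 12 for all genes in the table. CCGGAAG was found in 13 of the 31 (41.9%), against 16.2% of promoters of tested genes and 11.6% of all. GGGCGG was found in 61.3% of the 31 and in 61.2% of those of tested genes. A match is a description of letters, and binding was not measured here.

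The window of *Sf3b1* (GRCm38 chr1:55027482-55030481) had 21.4, 30.2, 23.5, 23.0 and 23.9 normalized counts in control and 124.7, 115.8, 153.2, 70.9 and 71.3 in *Dis3* cKO. All *Dis3* cKO libraries lay above all control libraries (log2 fold change 2.13, SE 0.30, adjusted p = 1.08e-10 in edgeR), while *Sf3b1* itself was at -0.04. Replicates 1 to 3 alone gave 2.38 and replicates 4 and 5 alone 1.6. The window of *Lsm4* (chr8:70670248-70673247) had 3.73, 2.83, 8.40, 1.92 and 0.0 normalized counts in control and 50.6, 40.8, 41.4, 29.9 and 19.3 in *Dis3* cKO (log2 fold change 3.36, SE 0.51, adjusted p = 3.15e-09 in edgeR; 3.10 in replicates 1 to 3 and 4.54 in replicates 4 and 5). This was the largest fold among the 14 windows, from control counts of 0.0 to 8.40, and it lay upstream of the gene with the lowest fold among the 40. The window's counts amounted to 0.105% of those of *Lsm4* in control and 1.63% in *Dis3* cKO. The other windows past the threshold lay upstream of genes that did not pass. A link between the change of a window and that of its gene was not tested.

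The window of *Snrpb*, the gene of the Sm proteins B and B′ (chr2:130179404-130182403), had 13.1, 10.4, 8.40, 11.5 and 8.27 normalized counts in control and 92.6, 60.8, 71.6, 22.2 and 45.3 in *Dis3* cKO (log2 fold change 2.49, SE 0.38, adjusted p = 3.25e-09 in edgeR). That of *Sf3a3* (chr4:124711776-124714775) had 10.3, 3.77, 6.72, 0.0 and 9.19 in control and 46.9, 27.5, 17.9, 17.7 and 17.0 in *Dis3* cKO (log2 fold change 2.05, SE 0.52, adjusted p = 0.00124 in edgeR). That of *U2af1* (chr17:31658893-31661892) had 2.80, 0.94, 0.84, 6.71 and 2.76 in control and 23.5, 16.1, 28.0, 12.2 and 7.93 in *Dis3* cKO (log2 fold change 2.60, SE 0.68, adjusted p = 0.00192 in edgeR). In each of these 3 windows the *Dis3* cKO libraries were all the higher ones, as in 11.1% of all windows, while the genes *Snrpb* (log2 fold change -0.12), *Sf3a3* (-0.12) and *U2af1* (-0.17) did not pass.

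The sixth window, that of *Snrnp70*, overlapped between groups (log2 fold change 1.26, SE 0.46, adjusted p = 0.0461 in edgeR). Its call was lost in 7 of the 10 fits that left out 1 library, those without control replicate 2, 3 or 4 or *Dis3* cKO replicate 1, 2, 3 or 4 (0.999 to 1.30, adjusted p in edgeR 0.0724 to 0.183). It was lost in each set alone too (1.15 in replicates 1 to 3 and 1.46 in replicates 4 and 5, adjusted p = 0.165 and 0.328 in edgeR). Within replicates 1 to 3 the windows of *Snrpb*, *Sf3a3* and *U2af1* passed (2.81, 2.13 and 3.79), and within replicates 4 and 5 their calls were lost (1.76, 1.88 and 1.08, adjusted p = 0.141, 0.366 and 0.717 in edgeR). Beyond the far edge of each of the 6 windows, the nearest annotated gene lay 3165 bases from that edge for *Sf3a3* and 6911 to 20838 bases from it for the others. The other 8 windows (*Snrpb2*, *Lsm5*, *Sf3b5*, *Lsm6*, *Prpf8*, *Snrpc*, *Snrpd1* and *Prpf19*) held 31 to 65 counts over all 10 libraries, with log2 fold changes from -2.07 to 2.04, and at this depth no difference was detectable.

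**Figure D5:**
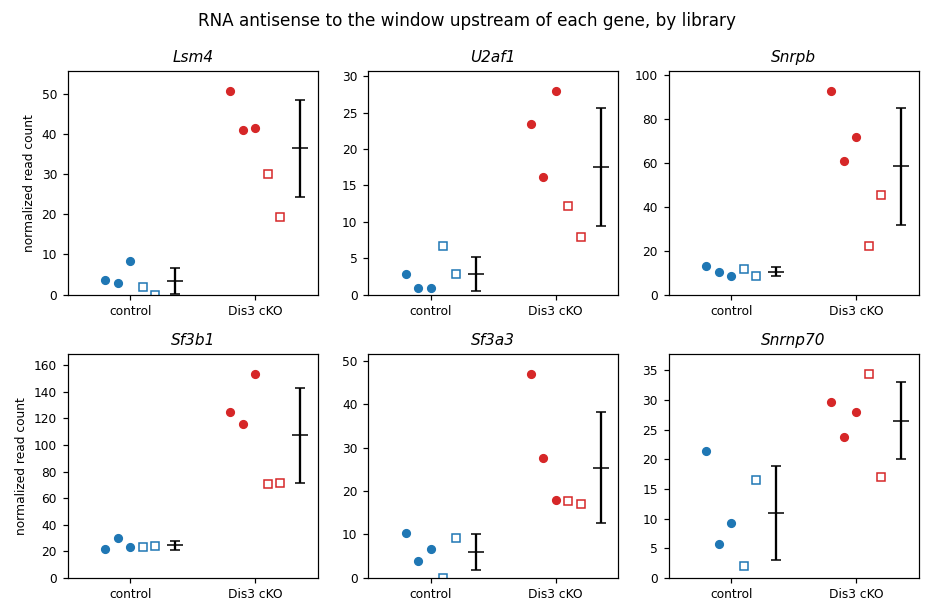
Normalized read count of RNA antisense to the 3000-base window upstream of 6 genes (vertical axis, from 0) in each library of control (blue) and *Dis3* cKO (red), with filled circles for replicates 1 to 3, open squares for replicates 4 and 5 and bars for the mean and SD (n = 5). All *Dis3* cKO libraries lie above all control libraries except for *Snrnp70*.

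Other genes of the pathway were taken from 5 lists of 77 genes in all, and all 77 were tested. In *Dis3* cKO 0 of them were higher and 2 lower (2.6%; 3.48% of all genes tested), with a median log2 fold change of -0.09. At an unadjusted p under 0.05 in edgeR, 4 were higher and 18 lower (5.19% and 23.4%; 11.8% and 12.1% of all genes tested), and DESeq2 called 0 higher and 7 lower (0% and 9.09%; 6.72% and 4.83% of all genes with an adjusted p). *Isy1*, which encodes a factor of the catalytic stage, had 847.1, 796.5, 706.2, 840.6 and 883.9 normalized counts in control and 519.6, 583.0, 528.8, 717.8 and 616.0 in *Dis3* cKO (log2 fold change -0.46, SE 0.10, adjusted p = 0.0152 in edgeR). *Gemin2*, which encodes the protein of the SMN complex that holds the Sm ring before assembly, had 279.6, 234.7, 293.9, 263.6 and 226.9 in control and 174.0, 170.0, 224.7, 116.3 and 190.2 in *Dis3* cKO (log2 fold change -0.57, SE 0.16, adjusted p = 0.0423 in edgeR). The call of *Gemin2* was lost in 9 of the 10 fits that left out 1 library, all but that without *Dis3* cKO replicate 3 (-0.62 to -0.45, adjusted p in edgeR 0.0542 to 0.0966). It was also lost within replicates 1 to 3 (-0.51, adjusted p = 0.0681 in edgeR) and with the length trend removed (adjusted p = 0.0696). Replicates 4 and 5 alone gave -0.67. *Isy1* passed in both sets (-0.525 in replicates 1 to 3 and -0.36 in replicates 4 and 5).

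Medians of the lists were 0.10 for 8 spliceosomal helicases, -0.08 for 22 other early and tri-snRNP factors, -0.17 for 21 activation and catalytic-stage factors, -0.14 for 9 minor spliceosome genes and -0.09 for 17 snRNP assembly genes. The helicases were the only one of these lists with a median above 0, 7 of its 8 values lying above 0, and none of them passed. Of 32 upstream windows tested for the 77 genes 7 were higher (21.9%; 13.6% of all windows tested), those of *Luc7l3*, *Ddx20*, *Luc7l2*, *Strap*, *Snrnp35*, *Gemin5* and *Prpf38b*, with log2 fold changes from 1.29 to 2.12. With libraries scaled on the upstream counts 3 of the 32 were higher (9.38%; 5.18% of all windows). Here too the shares over all windows include those of noncoding genes and pseudogenes.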

How the data were processed

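Whole-testis RNA at P4 was sequenced from 5 control and 5 *Dis3* cKO mice. The authors used cutadapt for trimming and HISAT2 for alignment, and deposited raw read counts from featureCounts (1.6.4) per gene and per upstream window, counted on the gene's strand for genes and on the opposite strand for windows. The deposited counts name GENCODE M18 on GRCm38 in their headers, whereas the study's methods name a later release. Symbols came from GENCODE M39 through the gene IDs (50129 of 54232 IDs, 98.96% of counts). Members, companion lists and marker lists were chosen with earlier results of these data known. Counts were tested as deposited with edgeR 4.0.16 (R 4.3.3; quasi-likelihood test, two-sided, filterByExpr, TMM, Benjamini-Hochberg over all features tested). Windows with a mean of at least 3 counts were tested with the gene libraries' sizes and factors. Normalized counts are counts divided by the TMM-scaled library size relative to its mean over libraries. The main edgeR fits of genes and windows, the DESeq2 fit of genes, the interaction test and the removal of the length trend were checked on simulated data. The other alternatives were not, and the simulated gene counts had less spread between libraries than the real ones. Alternatives were DESeq2 1.42.0, RLE scaling, no filter, a replicate block, the set of replicates as a term, each set alone, removal of the length trend and leaving out each library. Values in every library are given for members past the threshold, the 2 with the lowest p in each particle, the highest and lowest per length, up to 3 companions per list past the threshold and 5 windows with the lowest p. Sequences are from RefSeq (GRCm38.p6). Libraries of one group were compared by chi-square over genes, and the closest pair gave 4.36 per degree of freedom, more than sampling noise.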

Additional observations from a re-analysis of the deposited data

Results flagged for a closer look

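In 4 of 48 groups of 5 libraries tested, 1 library lay far from the others by Dixon's criterion, which chance meets in about 1 in 20 groups. *Snrpa1* had 2382 normalized counts in *Dis3* cKO replicate 1, above the other *Dis3* cKO libraries. *U2af2* had 2861 in control replicate 5, below the other control libraries, and *Prpf8* had 14872 in control replicate 3, above them. The window upstream of *Sf3b1* had 30.2 normalized counts in control replicate 2, above the other control libraries.

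In 4 genes the log2 fold change within replicates 4 and 5 differed from that within replicates 1 to 3 in edgeR's interaction test. The difference was -0.57 for *Snrpd2* (adjusted p = 0.0300), -0.45 for *Snrpf* (adjusted p = 0.0102), -0.48 for *U2af1* (adjusted p = 0.0366) and -0.44 for *Prpf4* (adjusted p = 0.0431). From replicates 1 to 3 to replicates 4 and 5 the median log2 fold change of germ cell markers also went from -0.23 to -0.81, that of cycling cell markers from -0.09 to -0.30, that of myoid markers from -0.34 to 0.80 and that of stromal markers from -0.17 to 0.71. Their part in the difference was not tested.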

How the results depend on the processing

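Over all alternatives *Lsm4* and *Snrnp40* kept their direction and their call, and *Dis3* did too. Among the 40 genes, the number lower was 5 over all libraries, 3 with the length trend removed, 9 with the replicate block, 10 with the set of replicates as a term, 3 within replicates 1 to 3, 18 within replicates 4 and 5 and 3 to 6 with 1 library left out. The number higher was 2, and 0 with the length trend removed or with no filter on low counts, 1 within replicates 1 to 3 and 0 to 2 with 1 library left out. Their median log2 fold change, -0.12, was -0.21 within replicates 4 and 5 and -0.15 to -0.09 with 1 library left out. Of the 77 other splicing genes 2 were lower, against 7 in DESeq2, 4 with no filter, 13 with the replicate block, 18 with the set as a term, 1 within replicates 1 to 3, 25 within replicates 4 and 5 and 1 to 5 with 1 library left out. The number higher was 0, and 2 with the block, 3 with the set as a term, 2 within replicates 1 to 3 and 1 within replicates 4 and 5. Of the 14 windows 6 were higher, 3 when scaled on the upstream counts. Within replicates 4 and 5, with 2 libraries per group, 2 of the 11 windows tested were higher. With 1 library left out 5 to 6 were higher of the 11 to 14 tested. No share over all windows is given for these last fits. Over all genes 885 were higher and 698 lower, 1489 and 1337 with the block, 1772 and 1669 with the set as a term and 2361 and 2360 within replicates 4 and 5. For the fits with no filter or with 1 library left out, no number over all genes is given. The counts of genes from those fits therefore have no background beside them. Among all 40 genes the sign changed in 6 with the length trend removed, 8 within replicates 1 to 3, 7 within replicates 4 and 5, 1 with the block, 1 with the set as a term, 2 with no filter, 0 in DESeq2 or with RLE scaling and 0 to 4 with 1 library left out. Of these, *Lsm6* alone was called, from 0.00 over all libraries to -0.24 within replicates 4 and 5 (adjusted p = 0.0252 in edgeR). The genes given library by library among them were *Snrpa* (0.009) and *Prpf19* (-0.004) with the length trend removed, *U2af1* (0.024) within replicates 1 to 3 and *Prpf19* (-0.025) within replicates 4 and 5. Where a count moved, the cause was not tested. The labels give both groups the numbers 1 to 5 and name no shared litter. The paper describes controls as littermates, but which libraries share a litter is not stated. Same-numbered libraries deviated together with r of 0.083 to 0.183, on average 0.136. Libraries of different numbers in the same set of replicates did so with 0.102 on average. Whether same numbers mark a pair was not settled by these values, and the block is given here only.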
